A study of Mus musculus with 6 samples.

Results

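Hedgehog signalling was followed through 9 genes in mouse embryonic stem cells (ESCs) as they differentiated towards endoderm: the ligands Shh, Ihh and Dhh, the receptor Ptch1, the ligand-binding antagonist Hhip, the signal transducer Smo and the transcription factors Gli1, Gli2 and Gli3. The genes were taken by name from gene tables of 24054 genes, and all 9 passed the filter on low counts that left 14539 genes for testing. RNA was sequenced from 3 populations with 2 samples each, 6 samples in all. Every sample came from one double knock-in (DKI) ESC line, heterozygous for a Foxa2-Venus and homozygous for a Sox17-Cherry fusion gene, so the reference population carries both fluorescent fusions as well. The d0 cells were undifferentiated and were sorted at day 0 as negative for both reporters. The d3F cells were sorted at day 3 of Wnt3a and Activin A treatment as Foxa2-Venus positive and Sox17-Cherry negative, and are labelled mesendoderm. The d5FS cells were sorted at day 5 of that treatment as positive for both reporters, and are labelled endoderm. Day and sorting gate changed together, so their effects cannot be told apart, and the results hold for 1 cell line.

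Hedgehog ligands are secreted proteins that bind Ptch1 on a receiving cell and relieve its inhibition of Smo, a membrane protein that then acts through the Gli factors. Gli1 is mainly an activator whose own transcription is switched on by the pathway, Gli2 acts mostly as an activator, and Gli3 is mostly cut to a repressor when no ligand is present. Ptch1 and Hhip are themselves pathway targets in many tissues and limit the spread or the strength of the signal. In the early mouse embryo Shh is made by the node and notochord, Ihh by visceral endoderm, and Shh and Ihh later by gut endoderm.

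The tables held 16457729 to 22768686 expected counts per sample, and the correlation of log2 CPM (counts scaled to a library of 1000000) between the samples of a population was 0.9509 to 0.9718. The d0 samples were the least alike. The summed CPM of 8 ESC markers was 2219 and 7546 in d0, 769 to 1491 in d3F and 247 to 339 in d5FS. The summed CPM of 10 definitive endoderm markers was 15.3 to 18.6 in d0, 318 to 485 in d3F and 782 to 1315 in d5FS, a list that includes the sorting genes Foxa2 and Sox17. Marker levels therefore ran in the order of the labels. The second sample of each population had counts for 18382 to 19910 genes and the first for 16790 to 16989 genes, so the sample number marks a difference that runs through all 3 populations.

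Since the ligands and the Gli factors are families of related genes, their transcripts were compared before their counts were. Between any pair of the 3 ligand transcripts of the GENCODE M21 annotation the longest identical run was 16 to 17 bases, and between pairs of the Gli transcripts it was 14 to 25 bases. No run came near 100 bases, so a read of that length from one of these transcripts differs from the related ones. The stretches below show the longest run of Shh with Ihh, of Shh with Dhh and of Gli2 with Gli3, each within 1 exon. Runs are in capitals, with 25 bases on either side, read 5′ to 3′ on the coding strand of the GRCm38 build. The stretches shown lie in coding exons: exon 2 of 3 in each ligand gene, exon 10 of 14 in Gli2 and exon 11 of 15 in Gli3. The run of 16 bases that Ihh and Dhh share lies in exon 1 of both genes and is not shown. The Shh stretch shared with Ihh covers chr5:28461503-28461569 and its partner chr1:74948485-74948551, both on the minus strand.
Shh: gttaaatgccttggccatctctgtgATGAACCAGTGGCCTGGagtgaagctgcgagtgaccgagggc
Ihh: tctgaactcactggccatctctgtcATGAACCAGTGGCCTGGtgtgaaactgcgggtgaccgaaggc
The Shh stretch shared with Dhh covers chr5:28461335-28461401 and its partner chr15:98894826-98894892, both on the minus strand.
Shh: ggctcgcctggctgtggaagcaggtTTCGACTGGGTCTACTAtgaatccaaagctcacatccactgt
Dhh: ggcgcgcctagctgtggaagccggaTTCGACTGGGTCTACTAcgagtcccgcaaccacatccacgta
The Gli2 stretch shared with Gli3 covers chr1:118845987-118846061 on the minus strand and its partner chr13:15713504-15713578 on the plus strand.
Gli2: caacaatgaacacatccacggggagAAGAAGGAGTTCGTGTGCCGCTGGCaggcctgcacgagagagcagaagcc
Gli3: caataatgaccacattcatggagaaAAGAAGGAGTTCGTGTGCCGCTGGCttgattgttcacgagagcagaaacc

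Of the 9 Hedgehog genes, 1 changed between d0 and d3F, none between d3F and d5FS and 2 between d0 and d5FS, by edgeR's quasi-likelihood test with a Benjamini-Hochberg (BH) adjusted p under 0.05 over all 14539 genes and an absolute log2 fold change over 1. Shh rose from d0 to d3F, where 2.8% of all tested genes rose and 1.9% fell. Shh was higher and Gli1 lower in d5FS than in d0, where 12.4% of all tested genes were higher and 10.4% lower. From d3F to d5FS, 1.08% of all genes rose and 0.461% fell, and no Hedgehog gene was called by edgeR or by DESeq2's Wald test. The median log2 fold change of the 9 genes was 0.11, -0.44 and 0.36 in the order d0 to d3F, d3F to d5FS and d0 to d5FS, and that of all genes was -0.01, 0.01 and 0.02. With the sample number as a block in the fit, 3 Hedgehog genes were called from d0 to d3F (Shh, Dhh and Smo, against 9.08% of all genes), none from d3F to d5FS (6.31% of all genes) and 4 from d0 to d5FS (Shh, Gli1, Gli3 and Smo, against 29.5% of all genes). Over the whole course the 2 called genes of 9 are thus close to the share of all genes called in either direction.

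**Figure D1:**
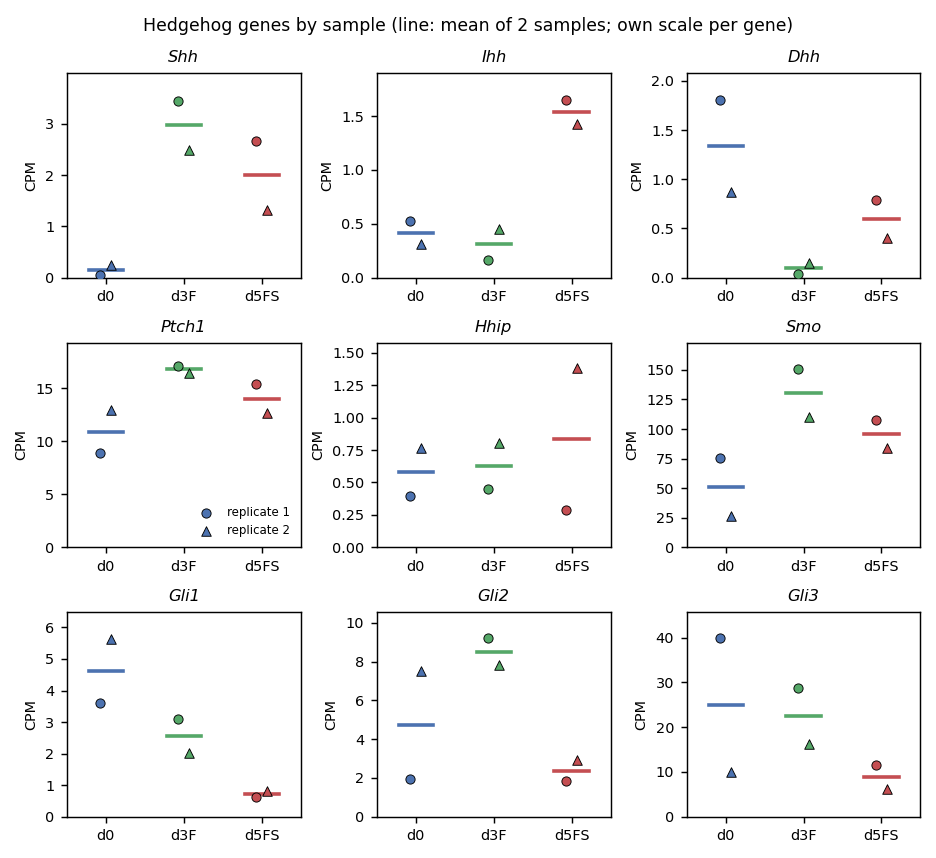
CPM of each Hedgehog gene (vertical axis, from 0, own scale per gene) in the 6 samples of d0, d3F and d5FS (horizontal axis), with circles for replicate 1, triangles for replicate 2 and lines for the mean of the 2 samples. Shh lies at 0.0439 and 0.256 CPM in d0 and above 1 CPM in the other 4 samples, and both d5FS samples of Gli1 lie below 1 CPM.

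**Figure D2:**
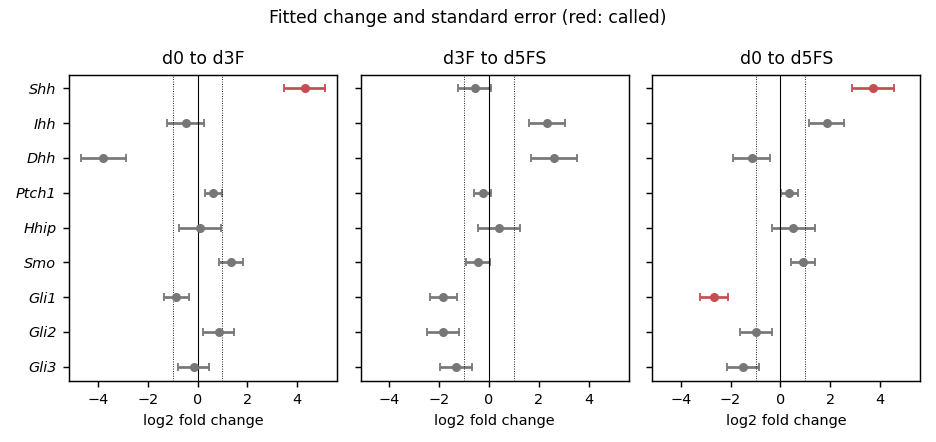
Log2 fold change (horizontal axis) of the 9 genes in the 3 comparisons, with bars for 1 standard error and dotted lines at -1 and 1; red marks genes called by edgeR's quasi-likelihood test. Shh from d0 to d3F and Shh and Gli1 from d0 to d5FS are called, and Dhh from d0 to d3F has a change of -3.78 that was not.

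Shh (chr5:28456815-28467256, minus strand) encodes the ligand best known for patterning the neural tube and gut. It had 1 and 5 counts in the d0 samples, 85 and 49 in d3F and 47 and 23 in d5FS, or 0.0439 and 0.256 CPM, 3.45 and 2.48 CPM, and 2.67 and 1.32 CPM. All 4 differentiated samples lay above both d0 samples, and the d3F and d5FS samples overlapped. Shh rose 19.7-fold from d0 to d3F, a log2 fold change of 4.3 ± 0.83 (SE, n = 2 and 2; edgeR, BH adjusted p = 0.0284). Against d0, the d5FS level was higher by 3.72 ± 0.83 on the log2 scale (SE; edgeR, BH adjusted p = 0.0171). Between the differentiated populations the log2 fold change was -0.57 ± 0.66 (SE; edgeR, BH adjusted p = 0.697), so the Shh level of d5FS was not told apart from that of d3F. From the pooled counts, scaled by library size, the d3F level was 21.3 times that of d0, with an exact 95% interval of 9.52 to 59.0 that covers counting error only. The call from d0 to d3F held in 1 of the 6 fits that left out a sample, the one without d0 replicate 2, and the other 5 gave edgeR BH adjusted p-values of 0.0518 to 0.103 with a log2 fold change of 3.5 or more. The call from d0 to d5FS was lost without d5FS replicate 1, at a log2 fold change of 3.12 (edgeR, BH adjusted p = 0.0979), and over the 6 fits the change ranged from 2.92 without d0 replicate 1 to 5.33 without d0 replicate 2. In sorted bulk samples, fewer cells that express a gene and less RNA per cell cannot be told apart.

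Markers of other cell types also changed between the populations, and not all of them in the direction of Shh. The summed CPM of 8 node and notochord markers (T, Noto, Foxj1, Chrd, Nog, Sox9, Pifo and Dnah11) was 10.5 to 29.3 in d0, 147 to 332 in d3F and 31.0 to 45.1 in d5FS. The largest part of the d3F sum was T, which the paper uses as a mesendoderm marker. T was at 19.8 and 5.13 CPM in d0, 169 and 69.1 CPM in d3F and 8.51 and 3.27 CPM in d5FS. Of these 8 genes, 7 rose from d0 to d3F by the same edgeR criteria and 3 (T, Noto and Chrd) fell from d3F to d5FS. Sox9, a transcription factor of the notochord and of several endodermal organs, was at 0.0439 and 0.0513 CPM in d0, 3.25 and 2.73 CPM in d3F and 2.55 and 2.29 CPM in d5FS, close to Shh in each population. Noto, a homeobox factor of the node, was by contrast at 6.25 and 3.64 CPM in d3F and at 0.0567 and 0.229 CPM in d5FS, where Shh was still at 2.67 and 1.32 CPM. The summed level of 8 mesoderm markers was 3.38 to 3.43 CPM in d0, 29.0 to 61.0 CPM in d3F and 12.3 to 30.5 CPM in d5FS. That of 7 neuroectoderm markers was 22.2 to 25.8, 10.6 to 23.4 and 1.93 to 2.75 CPM, with Zic1 at 0 in both d3F samples. The part of these cell types in the Shh values was not tested.

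**Figure D3:**
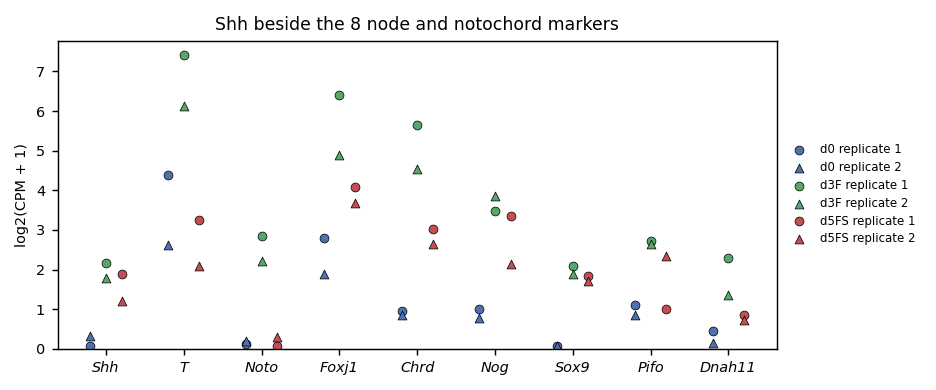
Shh beside the 8 node and notochord markers (horizontal axis) as log2(CPM + 1) in each of the 6 samples, coloured by population, with circles for replicate 1 and triangles for replicate 2. The d3F samples stand highest for all 8 markers, and for Shh and Sox9 the d5FS samples lie close to the d3F samples.

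Ihh (chr1:74945315-74951672, minus strand), the ligand best known from cartilage and from visceral and gut endoderm, had its highest values in d5FS. It was at 0.526 and 0.308 CPM in d0, 0.162 and 0.455 CPM in d3F and 1.65 and 1.43 CPM in d5FS, from 12 and 6, 4 and 9, and 29 and 25 counts. Both d5FS samples lay above all other samples, while d0 and d3F overlapped. For Ihh the log2 fold change was 2.33 ± 0.72 (SE) from d3F to d5FS and 1.86 ± 0.7 (SE) from d0 to d5FS, and neither was called (edgeR, BH adjusted p = 0.145 and 0.0862). The 8 visceral endoderm markers summed to 29.1 to 78.8 CPM in d0, with Apoa4 at 0. They summed to 17.0 to 18.6 CPM in d3F and 93.3 to 161 CPM in d5FS, so the sum too was highest in d5FS. Most of the sum in d0 and d3F was Rhox5, at 25.4 and 75.2 CPM in d0 and 15.9 and 14.0 CPM in d3F. Rhox5 was at 21.8 and 36.3 CPM in d5FS, so it did not follow the sum. Hnf4a was at 0.0877 and 0.205 CPM in d0 and 39.0 and 60.8 CPM in d5FS. The part of these markers in the Ihh values was not tested.

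Dhh (chr15:98891152-98898540, minus strand), the ligand of Schwann and Sertoli cells, had the largest share of the ligand transcripts in both d0 samples and almost no reads in d3F. It had 41 and 17 counts in d0, then 1 and 3 in d3F, and finally 14 and 7 in d5FS, or 1.8 and 0.871 CPM, 0.0406 and 0.152 CPM, and 0.794 and 0.401 CPM. The samples of the 3 populations did not overlap, with d5FS between the other two. Dhh had a log2 fold change of -3.78 ± 0.89 from d0 to d3F (SE; edgeR, BH adjusted p = 0.0514), just outside the threshold, and it was -3.7 with the sample number as a block (edgeR, BH adjusted p = 0.0485). Scaled by library size, the pooled level of d0 was 15.2 times that of d3F, with an exact 95% counting interval of 5.64 to 57.7. From d3F to d5FS the log2 fold change was 2.62 ± 0.92 (SE; edgeR, BH adjusted p = 0.189). The annotated Dhh locus overlaps Rhebl1, on the same strand, but their listed transcripts share 0 exon bases.

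The order of the ligands can be compared within a sample. By TPM (a level per transcript length, scaled to 1000000 in each sample), Dhh made up 77.1% and 63.2% of the 3 ligands in the d0 samples, Shh 94.0% and 78.4% in the d3F samples, and in d5FS Shh made up 49.5% and 40.0%, Ihh 33.7% and 47.5% and Dhh 16.8% and 12.5%. These shares rest on 28 to 90 ligand counts per sample. The leading ligand was the same in both samples of d0 and of d3F, whereas in d5FS it was Shh in one and Ihh in the other.

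**Figure D4:**
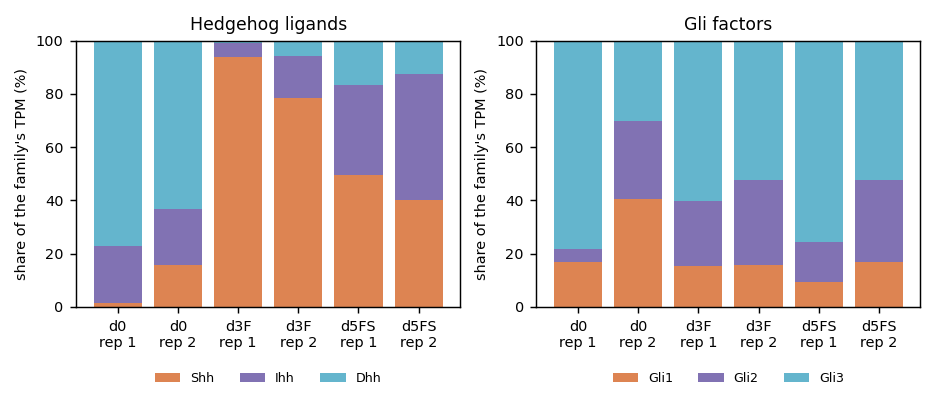
Share of the summed TPM (vertical axis, percent) taken by each ligand gene (left) and each Gli gene (right) in the 6 samples. Dhh is the largest ligand share in d0 and Shh in d3F, and Gli3 is the largest Gli share in 5 of the 6 samples.

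Among the receiving components, Ptch1 (chr13:63508328-63573598, minus strand), the ligand receptor, was at 8.86 and 12.9 CPM in d0, 17.1 and 16.4 CPM in d3F and 15.4 and 12.6 CPM in d5FS. Both d3F samples lay above both d0 samples, but the log2 fold change was 0.63 ± 0.34 (SE; edgeR, BH adjusted p = 0.362). Over the 6 samples the log2 CPM of Ptch1 and of Shh had a Pearson r of 0.922. The other pathway targets among the 9 genes did not follow Shh in this way, with r = 0.00966 for Hhip and r = -0.562 for Gli1. These values are given as a description since the samples fall into 3 populations. Hhip (chr8:79965851-80058006, minus strand), which binds ligand at the cell surface, had 5 to 24 counts in every sample and its 3 populations overlapped, with values of 0.395 and 0.769, 0.447 and 0.808, and 0.284 and 1.38 CPM. The pooled Hhip level of d3F, scaled by library size, was 1.07 times that of d0, with an exact 95% counting interval of 0.595 to 1.94, and Hhip was not called in any comparison.

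Smo (chr6:29735503-29761365, plus strand), the signal transducer, was the most abundant of the 9 transcripts. It was at 75.8 and 26.3 CPM in d0, 151 and 110 CPM in d3F and 108 and 83.8 CPM in d5FS, so each differentiated sample lay above both d0 samples. From d0 to d3F the log2 fold change of Smo was 1.35 ± 0.48 (SE; edgeR, BH adjusted p = 0.151), and with the sample number as a block it was 1.48 (edgeR, BH adjusted p = 0.0336). From d0 to d5FS it was 0.91 ± 0.47 (SE; edgeR, BH adjusted p = 0.191), and 1.05 with the block (edgeR, BH adjusted p = 0.0356). Within replicate 1 the log2 difference from d0 to d3F was 0.99 and within replicate 2 it was 2.06. Replicate 1 of d0 held 2.88 times the Smo level of replicate 2, and without it Smo was called from d0 to d3F at a log2 fold change of 2.31 (edgeR, BH adjusted p = 0.0206) and from d0 to d5FS at 1.85 (edgeR, BH adjusted p = 0.0186). Without replicate 2 of d0 the same changes were 0.79 and 0.35 and were not called (edgeR, BH adjusted p = 0.378 and 0.582), so the size of the Smo change depended on which d0 sample was kept.

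Gli1 (chr10:127329882-127341974, minus strand), the Gli gene that responds to the pathway itself, was the one Hedgehog gene called lower. It was at 3.6 and 5.64 CPM in d0, 3.09 and 2.02 CPM in d3F and 0.624 and 0.802 CPM in d5FS, from 82 and 110, 76 and 40, and 11 and 14 counts. The 3 populations did not overlap and were ordered by day. Gli1 fell 6.42-fold over the whole course, a log2 fold change of -2.68 ± 0.56 (SE; edgeR, BH adjusted p = 0.0135), with differences of -2.35 and -2.67 within replicates 1 and 2. Step by step, its log2 fold change was -0.85 ± 0.51 (SE) from d0 to d3F and -1.83 ± 0.55 (SE) from d3F to d5FS, neither of them called (edgeR, BH adjusted p = 0.411 and 0.139). The call from d0 to d5FS was lost without d5FS replicate 1 or 2 (edgeR, BH adjusted p = 0.0928 and 0.0604), with log2 fold changes of -2.52 and -2.86. Thus Shh, the ligand, and Gli1, the pathway-responsive factor, were called in opposite directions in d5FS against d0.

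The Gli1 and Shh loci each overlap a gene on the opposite strand, and the sources used here do not say that strand was used in counting, so reads from shared exon bases cannot be told apart. Arhgap9, on the plus strand, shares 62 of the 4057 exon bases of the Gli1 transcript (1.53%) and had 42 and 116 counts in d0, then 31 and 18 in d3F, and finally 7 and 5 in d5FS. Its counts too were lowest in d5FS, and its part in the Gli1 values was not tested. The antisense gene 9530036O11Rik shares 273 of the 2847 exon bases of the Shh transcript (9.59%) and had 0 to 4 counts in every sample, far fewer than Shh had in d3F and d5FS.

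Gli2 (chr1:118834132-119053619, minus strand) was highest in d3F and Gli3 (chr13:15463235-15730026, plus strand) in the first d0 sample. Gli2 was at 1.97 and 7.53 CPM in d0, 9.22 and 7.83 CPM in d3F and 1.82 and 2.92 CPM in d5FS. For Gli2 the log2 fold change from d3F to d5FS was -1.85 ± 0.64 (SE; edgeR, BH adjusted p = 0.187), although both d3F samples lay above both d5FS samples. Gli3 was at 39.8 and 10.0 CPM in d0, 28.7 and 16.3 CPM in d3F and 11.6 and 6.13 CPM in d5FS. The d0 samples of Gli3 thus span the values of d3F, and they overlap those of d5FS. In d5FS against d0 the Gli3 log2 fold change was -1.49 ± 0.64 (SE; edgeR, BH adjusted p = 0.126), and -1.29 with the sample number as a block (edgeR, BH adjusted p = 0.0271). It was -0.18 without d0 replicate 1 and -2.15 without d0 replicate 2 (edgeR, BH adjusted p = 0.829 and 0.0277), so it too depended on which d0 sample was kept. Replicate 1 exceeded replicate 2 of the same population in Gli3 by 3.98, 1.76 and 1.9 times in d0, d3F and d5FS. In Smo it did so by 2.88, 1.37 and 1.29 times, so these 2 genes moved with the sample number in every population. Hhip did so in the other direction, with replicate 1 at 0.513, 0.552 and 0.206 times the level of replicate 2.

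Per transcript length, Gli3 made up 78.2% and 30.1% of the Gli TPM in d0, then 60.3% and 52.3% in d3F, and finally 75.6% and 52.4% in d5FS. Gli1 made up 16.8% and 40.7%, 15.4% and 15.7%, and 9.3% and 16.7%. Gli3 was the largest Gli share in every sample but d0 replicate 2, where Gli1 was. The TPM ratio of Gli3 to Gli1 was 4.65 and 0.74 in the d0 samples, 3.92 and 3.33 in those of d3F, and 8.12 and 3.14 in those of d5FS, so the populations overlapped in this ratio.

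Ordered by TPM within each sample, with rank 1 the highest of the 9 genes, Smo had rank 1 in all 6 samples, at 13.1 and 2.15 TPM in the d0 samples, 26.8 and 11.7 in those of d3F and 13.2 and 6.57 in those of d5FS. Ptch1 had rank 2 in every sample but d0 replicate 1, where Gli3 did, and Gli3 had rank 3 in the d3F and d5FS samples. Shh had ranks 9 and 8 in the d0 samples, rank 5 in both d3F samples, and ranks 4 and 5 in the d5FS samples, where it and Ihh exchanged places. Gli1 had ranks 4 and 3 in d0, rank 6 in both d3F samples, and ranks 8 and 7 in d5FS. Dhh had ranks 5 and 6 in d0, rank 9 in both d3F samples, and ranks 6 and 8 in d5FS. Hhip had rank 8 or 9 in every sample. The TPM ratio of Smo to Ptch1 was 9.3 and 2.22 in the d0 samples, 9.58 and 7.28 in the d3F samples and 7.66 and 7.22 in the d5FS samples. TPM is ordered and divided within a sample only, since the 5 most abundant transcripts, short non-coding RNAs such as Rmrp among them, took 41.7% to 65.2% of all TPM.

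The rest of the pathway was read through 5 lists with 73 genes, of which 66 were tested. From d0 to d3F, 5 of the 66 rose and none fell, from d3F to d5FS none rose and 2 fell, and from d0 to d5FS 9 were higher and 5 lower. In either direction these are 7.58%, 3.03% and 21.2% of the list genes, beside the shares over all genes given above. In the same order those were 2.8% higher and 1.9% lower, 1.08% higher and 0.461% lower, and 12.4% higher and 10.4% lower. With the sample number as a block the totals were 8, 5 and 19, or 12.1%, 7.58% and 28.8% against 9.08%, 6.31% and 29.5% of all genes. The calls that the block added were Gpc6, Rab23 and Ccnd2 from d0 to d3F, Sulf1, Evc and Nr2f2 from d3F to d5FS, and Sulf1, Arrb2, Stk36, Ift27 and Foxf2 from d0 to d5FS. The median log2 fold change over these lists was 0.34, -0.17 and 0.3 in the same order, against -0.01, 0.01 and 0.02 over all genes. Several list calls did not hold in the 6 fits that each left out a sample: those of Scube3, Mgrn1 and, from d0 to d3F, Disp1 held in 0 of 6, that of Foxf2 in 1, and those of Gas1 from d0 to d3F and of Disp1, Tctn1 and Ccnd2 from d0 to d5FS in 2. Both calls from d3F to d5FS held in 3 of the 6 fits.

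Of the 11 genes for ligand processing and release, Disp1, which releases lipid-modified ligand from the producing cell, was called from d0 to d3F and from d0 to d5FS. It rose from 6.23 and 4.82 CPM in d0 to 14.7 and 24.2 CPM in d3F (log2 fold change 1.81 ± 0.39 SE; edgeR, BH adjusted p = 0.0403) and stood at 13.0 and 16.9 CPM in d5FS. Scube3, a secreted protein that helps ligand release, was lower in d5FS, at 3.91 and 2.58 CPM against 8.86 and 8.82 CPM in d0 (log2 fold change -1.44 ± 0.4 SE; edgeR, BH adjusted p = 0.0362). The other 9 were not called in any comparison without the block, among them Hhat, the acyltransferase of Hedgehog ligands, and Porcn, its relative that acts on Wnt ligands. The called share of this list was 9.09% from d0 to d3F and 18.2% from d0 to d5FS, beside the shares of all genes given above.

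Of 10 tested surface co-receptors and modulators, 2 rose from d0 to d3F, and 3 were higher and none lower in d5FS than in d0. Gas1, a co-receptor that promotes signalling, rose from 3.42 and 1.9 CPM in d0 to 10.2 and 18.7 CPM in d3F (log2 fold change 2.43 ± 0.52 SE; edgeR, BH adjusted p = 0.0384) and was at 8.91 and 16.0 CPM in d5FS. Gpc3, a glypican that competes with Ptch1 for ligand, rose from 24.8 and 23.9 CPM to 148 and 409 CPM (log2 fold change 3.51 ± 0.51 SE; edgeR, BH adjusted p = 0.0135) and kept its call in all 6 fits that left out a sample. The related Gpc4 was at 38.2 and 10.4 CPM in d0 and 378 and 307 CPM in d5FS (log2 fold change 3.82 ± 0.65 SE; edgeR, BH adjusted p = 0.00693). The co-receptors Cdon and Boc were not called in any comparison.

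**Figure D5:**
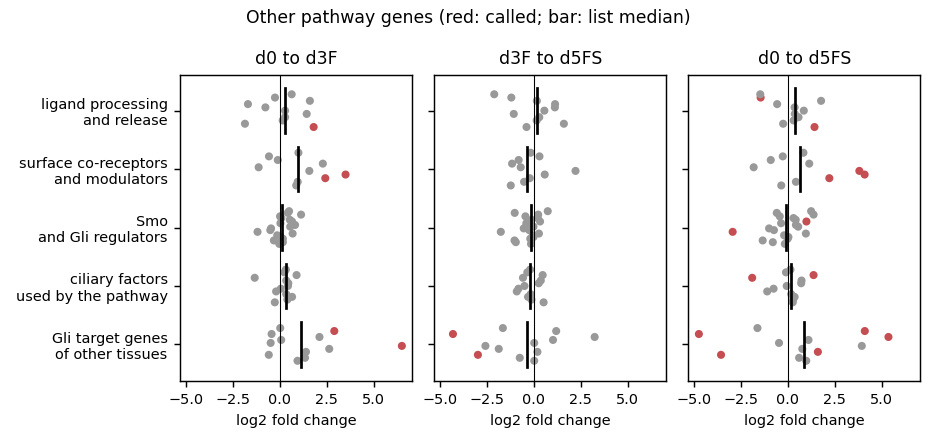
Log2 fold change (horizontal axis) of each tested gene of the 5 pathway lists (rows, 1 point per gene) in the 3 comparisons, with black bars for list medians and red for genes called by edgeR's quasi-likelihood test. Most points are grey, and the called points from d3F to d5FS both lie left of 0.

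Of 20 regulators of Smo and the Gli factors and 13 ciliary factors, none was called from d0 to d3F or from d3F to d5FS, comparisons in which few of all genes were called. With the sample number as a block, Rab23 was called from d0 to d3F (log2 fold change -1.33; edgeR, BH adjusted p = 0.0332) and Evc from d3F to d5FS (log2 fold change -1.81; edgeR, BH adjusted p = 0.044). From d0 to d5FS, 2 of the 20 regulators (10.0%) and 2 of the 13 ciliary factors (15.4%) were called, against 12.4% of all genes higher and 10.4% lower. In that comparison Evc, a ciliary partner of Smo, was lower (16.5 and 22.7 against 1.76 and 3.38 CPM; log2 fold change -2.93 ± 0.45 SE; edgeR, BH adjusted p = 0.00493), and so was Rab23, a small GTPase that restrains the pathway (26.7 and 20.3 against 6.07 and 6.59 CPM; log2 fold change -1.89 ± 0.35 SE; edgeR, BH adjusted p = 0.00927). Mgrn1, a ubiquitin ligase, and Tctn1, a protein of the ciliary transition zone, were higher, with log2 fold changes of 1.0 ± 0.28 and 1.38 ± 0.34 (SE; edgeR, BH adjusted p = 0.0369 and 0.0234). Sufu, which holds Gli proteins in the cytoplasm, was at 16.0 and 9.84 CPM in d0, 19.3 and 15.6 CPM in d3F and 6.01 and 11.3 CPM in d5FS and was not called.

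Of 17 genes that Gli factors are known to regulate in other tissues, 12 were tested and they did not move one way. From d0 to d3F, 2 rose: Sfrp1, a secreted Wnt inhibitor, from 15.4 and 12.8 CPM to 73.2 and 140 CPM (log2 fold change 2.91 ± 0.39 SE; edgeR, BH adjusted p = 0.0103), and the forkhead gene Foxf2, at 0.0 and 0.0513 CPM in d0 and 0.853 and 4.65 CPM in d3F (edgeR, BH adjusted p = 0.0336). From d3F to d5FS, 2 fell. They were Ccnd1, the cyclin D1 gene (109 and 81.8 against 14.3 and 10.1 CPM; log2 fold change -2.97 ± 0.34 SE; edgeR, BH adjusted p = 0.013) and Olig2, a neural progenitor factor that is also on the neuroectoderm marker list (22.8 and 7.63 against 1.02 and 0.516 CPM; log2 fold change -4.3 ± 0.64 SE; edgeR, BH adjusted p = 0.0229). From d0 to d5FS the same 2 were lower, and Sfrp1, Ccnd2 and Nr2f2, an orphan nuclear receptor gene, were higher with log2 fold changes of 4.11 ± 0.41, 1.61 ± 0.44 and 5.37 ± 0.77 (SE; edgeR, BH adjusted p = 0.00171, 0.0345 and 0.00407). The 8 fibroblast feeder markers summed to 15.4 to 17.8 CPM in d0, 41.3 to 84.0 in d3F and 200 to 250 CPM in d5FS. That sum rose beside Sfrp1 and Nr2f2, but the 8 genes did not all rise. Col1a2 reached 110 and 156 CPM in d5FS, whereas Dcn was at 0.702 and 0.103 CPM in d0 and 0.397 and 0.745 CPM in d5FS. Thy1 was at 3.07 and 1.49 CPM in d0 and 1.02 and 0.459 CPM in d5FS. The part of these markers in the rise of Sfrp1 and Nr2f2 was not tested.

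The genes whose pattern over the 6 samples was most like that of the called Hedgehog genes were sought among 10954 genes by the Pearson r of log2 CPM, as a description. For Shh they were Slit2, a secreted guidance ligand (r = 0.9925), Lrp4, an LDL receptor relative (r = 0.9863), and Aplnr, the apelin receptor (r = 0.9863). Slit2 was at 3.07 and 5.43 CPM in d0, 28.4 and 24.9 CPM in d3F and 29.0 and 20.0 CPM in d5FS. Lrp4 was at 11.9 and 15.5, 27.0 and 27.9, and 24.3 and 20.9 CPM in the same order. Aplnr was at 0.0439 and 0.359, 26.8 and 18.4, and 9.81 and 2.87 CPM. From d0 to d3F their log2 fold changes were 2.65, 1.0 and 6.83, against 4.3 for Shh, so a high r did not mean a change of like size. For Gli1 they were Stmn3 (r = 0.9985), Bccip (r = 0.9982) and Sh3gl3 (r = 0.9976). Sh3gl3, an endophilin gene, was at 7.68 and 14.0, 5.56 and 3.74, and 0.511 and 0.745 CPM in the 3 populations, with no overlap between populations, as for Gli1.

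RefSeq promoter windows of GRCm38.p6, 250 bases before to 50 after a start, were at hand for 7 of the 9 genes (Ihh, Dhh, Ptch1, Hhip, Smo, Gli2 and Gli3). On both strands, none of the 7 held the Gli motif GACCACCCA or the forkhead motifs TGTTTAC or TATTTAC, which 0.253%, 3.65% and 3.04% of all 32851 windows held. The 7 windows had a GC content of 61.7% to 76.3%, against a median of 52.7% over all windows, and 4 of them reached 70% GC, as 9.58% of all windows did.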

How the data were processed

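The deposited gene tables (1 per sample, RSEM) gave expected counts and TPM, which the authors made by aligning reads to mm10 (GRCm38) with STAR and estimating RefSeq transcripts with RSEM; versions are not given in the sources used here. The kit named (ribosomal depletion, TruSeq V2 RNA) does not mark strand. Neither PCR duplicates nor molecular identifiers are mentioned, so counting intervals cover counting error only. Depth was 16457729 to 22768686 counts per sample.

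Expected counts were rounded to whole numbers and fitted with edgeR 4.0.16 (R 4.3.3) across all genes: TMM scaling (factors 0.8772 to 1.082), filterByExpr, 1 coefficient per population, quasi-likelihood test over all 6 samples with 3 residual degrees of freedom, BH adjustment, a gene being called where its adjusted p was below 0.05 and its log2 fold change above 1 in size. CPM uses the TMM-scaled library sizes. An exact permutation test of 2 against 2 samples cannot go below p = 0.33 and was not used. The script was tested on simulated data. Alternatives were DESeq2 1.42.0 and other scaling, filters, sample sets and the block. The study describes the 2 samples of each population as independent biological replicates.

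Only the fit with the block treated the sample numbers as pairs, and the main fit did not. The block was added since deviations from the population means of same-numbered samples correlated at 0.314, 0.324 and 0.278. The pairing comes from the data, and the labels give only the number. For each population the study lists an mRNA and a total RNA library, without saying which sample had which. The samples of a population may therefore differ in RNA type as well. The part of RNA type in their differences, and so in the SE and the block, was not tested. The 9 genes, the pathway and marker lists and the rules were chosen with earlier results of these data known. Genes named were all 9 members, called genes of the lists (at most 4 per list and comparison, by size of change), Hhat, Porcn, Cdon, Boc and Sufu, added for their roles after their values were seen, and the 3 most similar genes per called member, searched where some population averaged 1 TPM or more. Sequences came from GENCODE M21 transcripts and RefSeq promoter tables. Protein sequences were not used here. A few listed genes are not reported here, and list counts and marker sums leave them out.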

Additional observations from a re-analysis of the deposited data

How the results depend on the processing

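The direction of Shh and of Gli1 from d0 to d5FS was the same under all alternatives that tested them, and both calls were lost in DESeq2's Wald test against a log2 fold change of 1, where 0 Hedgehog genes remained called (adjusted p = 0.0533 for Shh and 0.0906 for Gli1). The number of Hedgehog genes called from d0 to d3F was 2 with DESeq2 size factors, 2 with DESeq2's Wald test, 3 without a filter on low counts, 0 with at least 10 counts required in every sample, which removes Shh, Ihh, Dhh and Hhip, and 3 with the replicate block. From d3F to d5FS it was 3 without a filter. From d0 to d5FS it was 1 with at least 10 counts and 4 with the replicate block. For the pathway lists the count from d0 to d3F was 8 with the Wald test, 3 with the Wald test against a log2 fold change of 1, 9 without a filter, 3 with at least 10 counts, 8 with the replicate block and 2 with only the 2 populations compared; from d3F to d5FS it was 7 with the Wald test, 8 without a filter, 1 with at least 10 counts, 5 with the replicate block and 5 with only the 2 populations; from d0 to d5FS it was 7 with the Wald test against a log2 fold change of 1. Over all genes the counts were 683, 224 and 3313 in the order d0 to d3F, d3F to d5FS and d0 to d5FS; they were 1516 and 1104 for the first 2 comparisons with the Wald test, 384 from d0 to d3F and 1035 from d0 to d5FS with the Wald test against 1, and for the first 2 again 1933 and 1423 without a filter, 357 and 144 with at least 10 counts, 1320 and 918 with the replicate block and 430 and 529 with only 2 populations. The cause of these shifts was not tested, beyond the fewer genes or samples that some settings use. Gli3 from d0 to d3F reversed to 0.07 with the block, which changed no call other than those given for Dhh, Smo and Gli3 among the 9 genes.

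Leaving out each sample in turn gave 0 to 1 called Hedgehog genes from d0 to d3F (0 without either d3F or either d5FS sample), 0 to 0 from d3F to d5FS and 0 to 4 from d0 to d5FS (0 without d5FS replicate 1, 1 without d5FS replicate 2, 4 without d0 replicate 1). The pathway lists gave 2 to 6 (2 without d0 replicate 2, d3F replicate 2 or either d5FS sample), 0 to 5 (0 without d3F replicate 1 or either d5FS sample, 5 without either d0 sample) and 8 to 15 (8 without d5FS replicate 1 and 9 without d5FS replicate 2), and all genes 97 to 977, 0 to 496 and 1047 to 3037. A population left with 1 sample was assumed to vary like the others. Log2 fold changes that changed sign were those of Ihh (-1.32 to 0.12) and Gli3 (-0.81 to 1.17) from d0 to d3F, of Gli2 from d0 to d5FS (-1.68 to 0.27) and of Hhip, which ranged over -0.36 to 0.66, -1.12 to 1.12 and -1.0 to 1.24 in the 3 comparisons. TPM rescaled by the TMM factors stayed within the spread between samples for 25 of 27 mean levels, the others being Hhip in d0 (0.0316 against 0.03 TPM) and Gli2 in d5FS (0.126 against 0.13 TPM). Depth limits the ligands and Hhip most, with 1 to 85 counts per sample.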
